A study of Mus musculus with 18 samples.

Results

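The 10 genes described here encode receptors of the tumour necrosis factor (TNF) receptor family in WEHI-231 cells, a mouse B cell lymphoma line: Tnfrsf13c, Tnfrsf13b, Cd40, Cd27, Tnfrsf1a, Tnfrsf1b, Fas, Ltbr, Tnfrsf8 and Tnfrsf22. They are 10 of the 55487 genes listed in the deposited tables, and 9 of them had enough reads to be tested. With earlier results of these data known, the members were named for their place in this family. Of these, Tnfrsf8 and Tnfrsf22 were selected on their measured difference, low in both TFEB mutant clones, so that their difference from parental cells is given as a description without a test, and counts of members in that comparison cover the other 8 genes.

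RNA was sequenced from parental (WT) cells and from 2 TFEB knockout clones, #A-59 and #B-20, each unstimulated (0 h) or stimulated for 6 or 18 h with 10 µg/ml anti-IgM F(ab')2 fragments, which crosslink the B cell receptor (BCR). Each of these 9 groups held 2 libraries from independent experiments, 18 in all. The clones were made by electroporating Cas9 with guides to TFEB and growing single cells, so that each genotype is represented by 1 cell line and a difference shared by all its libraries can belong to the clone as well as to the mutation. The values are reads counted per gene, and levels are given below as CPM, a gene's counts relative to all counts of its library after TMM scaling.

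Receptors of this family are trimerised by ligands of the TNF family and signal without enzymatic activity of their own. Most recruit TRAF adaptor proteins, which lead to NF-κB and to MAP kinases, while the death receptors Fas and TNFR1 carry a cytoplasmic death domain that can recruit FADD or TRADD and caspase-8. In B cells, the receptor for BAFF sustains survival of mature cells, CD40 receives help from T cells, and Fas can remove activated cells. TFEB is a basic helix-loop-helix transcription factor known for lysosomal and autophagy genes and binds E-box sequences.

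The libraries held 11223588 to 29655262 counts each (median 19846544). Replicates differed most in #B-20 and #A-59 at 6 h, with a chi-square per degree of freedom of 54 and 31.3 beside 3.44 to 16.2 in the other groups, and #B-20 6 h replicate 2 had the most genes with a count (24256, at 15733691 counts). Without that library the 6 h difference from parental cells was 3.25 for Fas, -2.40 for Tnfrsf1a, -4.57 for Tnfrsf1b and 0.98 for Cd40 on the log2 scale. Tfeb itself lay between 79.2 and 99.9 CPM in the 6 parental libraries and between 25.5 and 54.1 CPM in the 12 clone libraries, without overlap. All 9 B cell markers examined were expressed, with a summed level of 7200 to 13200 CPM in parental libraries, 8640 to 14200 in those of #A-59 and 7460 to 11800 in those of #B-20. Of the 7 T cell markers, 6 stayed under 1 CPM in every library, Cd3e, Cd8a and Trac among them, and the summed level came from Lck. Among 6 myeloid markers, Lyz2, Cd14 and Csf3r stayed under 1 CPM throughout, and the summed level was higher in #A-59 (7.75 to 27.8 CPM) than in parental cells (1.83 to 9.01 CPM) or #B-20 (2.76 to 7.07 CPM), mostly through Itgam, which reached 26.3 CPM. Against parental cells, Itgam was called higher in #A-59 at all 3 times. It was also called higher in #B-20 at 0 h and 6 h, by 1.37 and 1.57 on the log2 scale. Adgre1 was called in neither clone. With anti-IgM, Adgre1 was called higher in #A-59 at 6 h, and Itgam at 18 h in parental cells and #A-59. Csf1r held at most 57 reads in a library, with a median of 0.182 CPM. It passed the filter on low counts through stimulated #A-59 libraries, so its calls in #A-59 are given no test here. As a description, its log2 change in #A-59 was 2.34 against parental cells at 6 h, and 4.21 and 2.89 after 6 and 18 h of anti-IgM. Of 5 plasma cell markers, 4 were tested. Jchain, named after its values were seen, was called lower than in parental cells at 18 h in both clones. Its log2 fold change was -1.81 for #A-59 and -1.31 for #B-20. The other calls against parental cells were Irf4, lower in #A-59 at 6 h (-1.10), and Sdc1, higher in #B-20 at 18 h (1.305). After 18 h of anti-IgM, the plasma cell markers Irf4 and Sdc1 were called lower and the B cell marker Ms4a1 higher in all 3 genotypes, as was the member Cd27 described below. The part of these markers in the differences below was not tested. In such bulk libraries, fewer cells that express a gene and less RNA per cell cannot be told apart.

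Per kilobase of the longest transcript, the BAFF receptor gene Tnfrsf13c was the most abundant member in unstimulated parental cells, at 267 ± 3.37 CPM per kb (SD, n = 2). Tnfrsf13b followed with 77.0 ± 2.71 and Cd40 with 67.5 ± 1.46 CPM per kb. The remaining genes lay far lower, with Tnfrsf8 at 5.30 ± 0.816, Cd27 at 4.13 ± 0.635, Tnfrsf1a at 2.49 ± 0.0902 and Tnfrsf22 at 1.27 ± 0.0464 CPM per kb. Tnfrsf1b at 0.583 ± 0.122 and Fas at 0.414 ± 0.128 CPM per kb overlapped in their libraries, and no other neighbours in this order did. Ltbr, the lymphotoxin beta receptor, had 0 reads in each of the 18 libraries, which allows at most 0.102 to 0.268 CPM per library at 3 counts. The order was the same with the union of exons as the length.

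**Figure D1:**
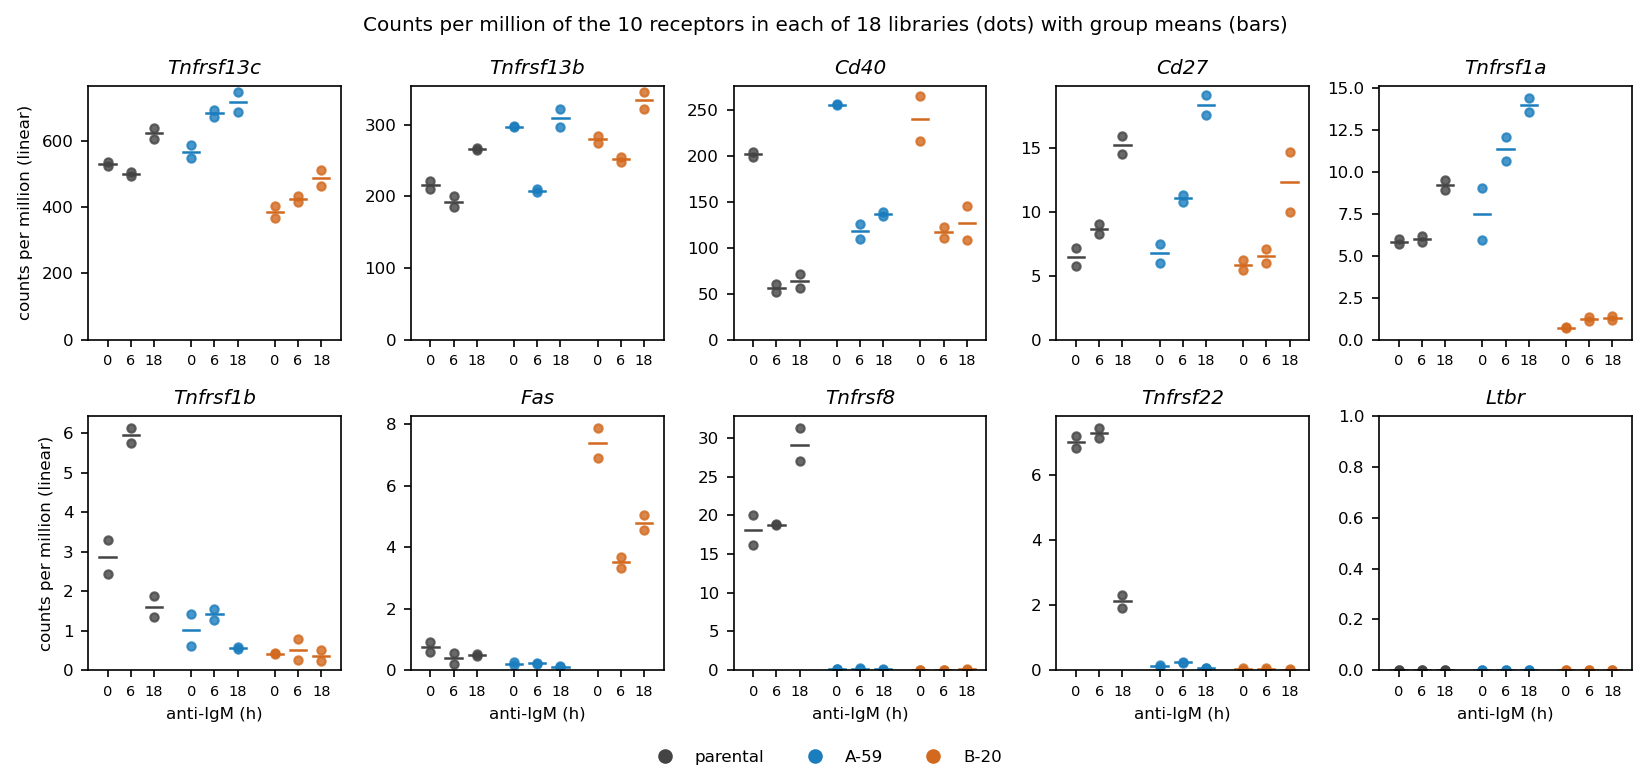
Level in CPM of the 10 receptor genes (y, linear scales that differ between panels) in each library (dots) against hours of anti-IgM (x), with the mean of the 2 libraries of a group as a bar. Tnfrsf8 and Tnfrsf22 are visible in parental cells only, Fas stands highest in #B-20, Tnfrsf1a lowest in #B-20, and Cd40 lies lower with anti-IgM than without in all 3 genotypes.

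A gene was called in a comparison when its FDR was under 0.01 and its log2 fold change exceeded 1 in either direction. Against parental cells, 2 of the 8 genes other than Tnfrsf8 and Tnfrsf22 were called in #A-59 at 0 h, 2 at 6 h and 1 at 18 h. Of all 15318 tested genes, 4.78%, 7.91% and 4.92% were called there. In #B-20, 3, 4 and 3 of the 8 were called, beside 5.16%, 6.73% and 6.21% of all genes. The list was drawn up with earlier results of these data known, so counts of its members beside these shares are a description only. Anti-IgM for 6 h changed 1 of the 10 members in each genotype, with 2.62% (parental), 1.39% (#A-59) and 0.385% (#B-20) of all genes called. At 18 h, 3 of 10 were called in parental cells and 1 in each clone, beside 10.3%, 8.76% (#A-59) and 4.8% (#B-20) of all genes. The parental calls were Cd40, Cd27 and Tnfrsf22. Tnfrsf22, on the list for being low in the clones, held 0 to 6 reads in a clone library, which left no measurable response. Cd40 fell short in the clones on size only, at log2 changes of -0.90 (#A-59) and -0.92 (#B-20). No member was called for a response that differed between a clone and parental cells, where 0.339% (#A-59, 6 h), 0.0326% (#A-59, 18 h), 0.131% (#B-20, 6 h) and 0.163% (#B-20, 18 h) of all genes were called. In these 4 comparisons edgeR and DESeq2 both called 0 of the 7 tested genes other than Tnfrsf8 and Tnfrsf22. The unadjusted edgeR p was under 0.05 for 4, 2, 1 and 1 of these 7. Counts out of 8 or 10 include Ltbr, which was not tested, while the shares of all genes cover tested genes only. The clones differed from each other in 2 of 10 members at each time, beside 3.85%, 5.82% and 4.82% of all genes at 0, 6 and 18 h. Both clones were set against the same parental libraries, and both stimulation times against the same unstimulated ones, so these comparisons are not independent of each other.

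Tnfrsf8 encodes CD30, a receptor known from activated lymphocytes and from Hodgkin and anaplastic large cell lymphoma. The gene lies at chr4:145267132-145315164 (GRCm38). Parental libraries held 16.1 and 20.1 CPM when unstimulated, 18.8 and 18.7 after 6 h, and 27.0 and 31.2 after 18 h, from 303 to 602 reads each. None of the 12 clone libraries held more than 5 reads, and the highest clone level was 0.242 CPM. As a description, since this difference put the gene on the list, summed reads were 146-fold higher in parental cells than in #A-59 at 0 h (95% counting interval 66.9 to 400, 931 against 6 reads), 101-fold at 6 h (50.9 to 234) and 265-fold at 18 h (103 to 973). For #B-20 the ratios were 279 at 0 h (77.0 to 2310, 931 against 2 reads), 334 at 6 h (92.3 to 2760) and 326 at 18 h (139 to 1010). These intervals are exact for reads summed over the libraries of a group and cover counting error only. They leave out the spread between libraries. The reads carry no molecular identifiers, so copies of a molecule were counted as separate reads. Within parental cells, anti-IgM gave a log2 change of 0.05 ± 0.18 (SE) at 6 h and 0.69 ± 0.18 at 18 h, the latter with an adjusted p of 0.00375 (edgeR) and short of the size required for a call, although the libraries at 18 h lay above all others.

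Tnfrsf22 encodes a mouse decoy receptor for TRAIL without a death domain. It lies at chr7:143634808-143649675 (GRCm38), between its relatives Tnfrsf26 and Tnfrsf23. Parental libraries held 6.84 and 7.20 CPM when unstimulated, 7.17 and 7.45 after 6 h, and 2.32 and 1.92 after 18 h. In the clones, #A-59 libraries held 1 to 6 reads and #B-20 libraries 0 or 1 read. The parental level was 48.9-fold that of #A-59 at 0 h (23.5 to 122, 363 against 7 reads), 31.4-fold at 6 h (16.9 to 66.1) and 36.8-fold at 18 h (9.79 to 311, 63 against 2 reads). Against #B-20, with 1 read in all at each time, the ratio was 218 at 0 h (38.8 to 8620), 260 at 6 h (46.4 to 10300) and 114 at 18 h (19.6 to 4550). In parental cells the log2 change was 0.06 ± 0.20 after 6 h of anti-IgM (adjusted p = 0.911), and the gene fell by 1.75 ± 0.24 on the log2 scale at 18 h (adjusted p = 8.76e-06, edgeR). Within parental cells the fitted change at 18 h was therefore positive for Tnfrsf8 and negative for Tnfrsf22, and only the latter was called. In the clones, 0 to 6 reads per library left no measurable response of either gene.

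Reads of Tnfrsf22 can be shared with a near copy: 23.9% of its 5527 exonic stretches of 50 bases also occur in other genes, 720 of them in Tnfrsf23, and the gene E230032D23Rik overlaps it on the opposite strand, which non-stranded libraries cannot separate. Tnfrsf23, the other decoy receptor, was low in all genotypes, with 0.414 to 0.981 CPM in parental cells and 0 to 0.522 CPM in the clones. Its difference from parental cells was not called in either clone, with log2 fold changes from -1.33 ± 0.68 (#B-20, 0 h) to -0.34 ± 0.53 (#A-59, 0 h). Tnfrsf26 held 3 to 9 reads in parental libraries and 0 or 1 read in every clone library, too few to be tested. No 50-base stretch of Tnfrsf8 occurs in another gene.

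The protein-coding genes next to both receptors were compared in the same fit. On chromosome 4, Vps13d, Dhrs3 and Zfp990 were not called in either clone at any time, the nearest being Dhrs3 in #A-59 at 6 h (-0.97 ± 0.16), and the adjacent Tnfrsf1b was lower (described below). On chromosome 7, Nap1l4 differed by -0.04 to 0.20 and Nadsyn1 by -0.19 to 0.17 on the log2 scale. Slc22a18, with few reads, was not called either. Mrgpre, a G protein-coupled receptor gene further along, was called lower in both clones at all times, by log2 fold changes from -2.03 ± 0.14 (#A-59, 0 h) to -1.16 ± 0.12 (#A-59, 6 h). Osbpl5, an oxysterol-binding protein gene, was called lower in #B-20 at 6 h (-2.30 ± 0.36). Its other calls, lower in #B-20 at 0 h (-1.86 ± 0.40) and higher in #A-59 at 18 h (1.57 ± 0.35), were lost without parental replicate 1 (adjusted p = 0.0216) or #B-20 replicate 1 (0.0621) at 0 h, and without parental replicate 1 (0.0175), parental replicate 2 (0.069) or #A-59 replicate 1 (0.0611) at 18 h. On chromosome 7, Tnfrsf23 was thus the only tested gene between Tnfrsf22 and Mrgpre without a call.

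**Figure D2:**
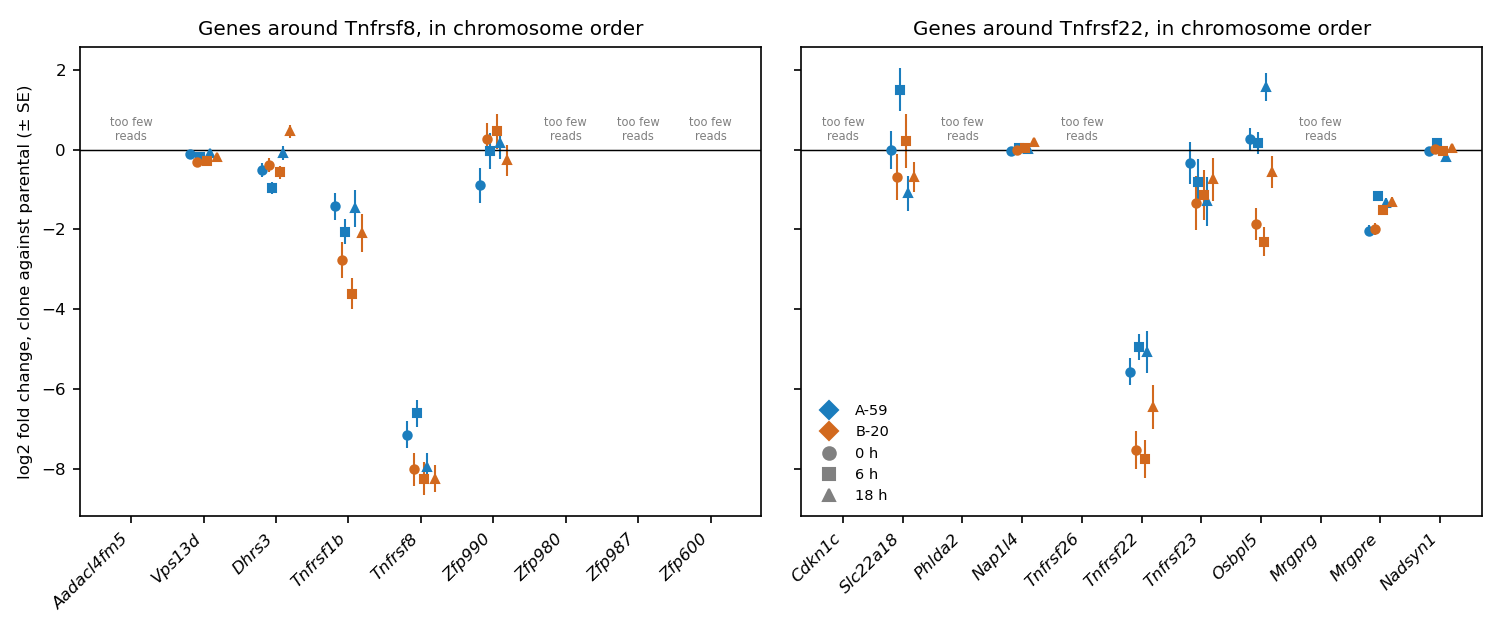
Log2 fold change of each clone against parental cells (y, ± SE) for the protein-coding genes around Tnfrsf8 and Tnfrsf22 in chromosome order (x, not to scale), with colour for the clone and symbol for the time. Tnfrsf8 lies between -8.24 and -6.61 and Tnfrsf22 between -7.75 and -4.94, while Vps13d, Nap1l4 and Nadsyn1 lie near 0.

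The 5 tested genes outside the list with the profile most like that of Tnfrsf8 over the 18 libraries were Vwf, Macc1, Gm48630, Vps45 and Zfp931 (Pearson r of log2 CPM from 0.987 to 0.99). For Tnfrsf22 they included Gm38910, Rbbp9, Cdyl2 and Cdk20 (r from 0.958 to 0.968). All values come from the same libraries, and each r rests mainly on the gap between 6 parental and 12 clone libraries. Macc1 held 27.0 and 28.5 CPM in unstimulated parental cells and 0 reads in both unstimulated #A-59 libraries, whereas Vps45 was still at 36.6 and 35.4 CPM in #A-59 against 205 and 229 CPM in parental cells.

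Promoter sequences were read from RefSeq entries on GRCm38.p6, which held 8 of the 10 members. Tnfrsf22 and Cd40 had no entry and were not searched. The 250 bases before the start site were searched for the E-box CACGTG, a palindrome that reads alike on both strands. It was found before Tnfrsf8, Fas and Ltbr, 3 of 8 members, and in 6.02% of 32851 windows of the same length. The longer TCACGTG was found on either strand in 1 of 8, Ltbr, and in 3.13% of windows, all of which also hold the shorter motif. The windows of these 3 genes are printed because they hold the motif, in capitals, and that of Tnfrsf1b because it is the neighbour of Tnfrsf8 that was also lower in both clones. They run 5′ to 3′ on the strand of the gene and end at the base before the start of the RefSeq transcript, which for Fas lies just inside the outer bounds of the gene given below, at chr4:145315165-145315414 (minus strand), chr19:34290409-34290658 (plus), chr6:125313886-125314135 (minus) and chr4:145246871-145247120 (minus).
Tnfrsf8: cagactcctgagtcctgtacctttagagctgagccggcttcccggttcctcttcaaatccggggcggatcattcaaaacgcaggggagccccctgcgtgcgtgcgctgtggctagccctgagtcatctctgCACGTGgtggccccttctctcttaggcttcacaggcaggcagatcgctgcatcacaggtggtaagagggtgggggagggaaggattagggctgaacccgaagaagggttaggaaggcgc
Fas: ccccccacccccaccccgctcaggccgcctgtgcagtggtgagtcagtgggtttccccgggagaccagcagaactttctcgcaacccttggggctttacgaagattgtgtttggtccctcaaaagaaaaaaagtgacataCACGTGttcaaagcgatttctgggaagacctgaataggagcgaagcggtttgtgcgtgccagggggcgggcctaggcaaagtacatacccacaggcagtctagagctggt
Ltbr: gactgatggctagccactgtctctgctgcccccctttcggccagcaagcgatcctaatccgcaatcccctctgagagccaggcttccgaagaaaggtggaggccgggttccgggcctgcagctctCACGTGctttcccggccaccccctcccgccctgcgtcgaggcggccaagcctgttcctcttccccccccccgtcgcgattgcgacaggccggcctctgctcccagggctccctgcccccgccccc
Tnfrsf1b: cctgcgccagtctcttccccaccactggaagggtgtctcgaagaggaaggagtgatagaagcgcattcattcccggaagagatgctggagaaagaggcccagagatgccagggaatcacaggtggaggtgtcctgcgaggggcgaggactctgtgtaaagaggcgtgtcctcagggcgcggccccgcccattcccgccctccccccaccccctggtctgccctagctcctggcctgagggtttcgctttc
The motif starts 119 bases before that transcript start of Tnfrsf8, 110 before that of Fas and 125 before that of Ltbr. The 3 genes with the motif differed from each other in level: Tnfrsf8 had next to no reads in either clone, Fas was higher in #B-20, and Ltbr had no reads in any library. An NF-κB consensus, searched in the same windows, was found in 1 of 8 members, Tnfrsf8, and in 7.25% of windows. It is not marked in the sequence printed.

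Tnfrsf13c encodes the BAFF receptor (BAFF-R) and Tnfrsf13b encodes TACI, which binds BAFF and APRIL. Tnfrsf13c (chr15:82221742-82224380) held 525 and 534 CPM in unstimulated parental cells, 586 and 548 CPM in #A-59 and 404 and 367 CPM in #B-20. It was not called in any comparison, and its largest differences were between the clones, where #B-20 lay below #A-59 by a log2 fold change of -0.56 ± 0.08 at 0 h, -0.69 ± 0.08 at 6 h and -0.55 ± 0.08 at 18 h (adjusted p = 6.99e-05, 4.84e-06 and 5.28e-05). All 6 #B-20 libraries lay below all 6 #A-59 libraries. Of its 50-base stretches, 14.6% also occur in other genes, mostly in Gm62282 on the opposite strand. Tnfrsf13b (chr11:61126283-61153170) held 210 and 221 CPM in unstimulated parental cells, 297 and 298 CPM in #A-59 and 275 and 284 CPM in #B-20. The unstimulated clones lay above parental cells on the log2 scale, #A-59 by 0.46 ± 0.08 (adjusted p = 0.00023) and #B-20 by 0.38 ± 0.08 (adjusted p = 0.00171), under the size needed for a call. Both genes kept within 0.69 on the log2 scale in every comparison.

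CD40 is the receptor through which helper T cells sustain activated B cells. Cd40 (chr2:165055614-165071654) held 199 and 205 CPM in unstimulated parental cells, 60.9 and 51.6 CPM after 6 h of anti-IgM and 72.1 and 56.7 CPM after 18 h. #A-59 libraries gave 256 and 255 CPM when unstimulated, 126 and 110 after 6 h and 135 and 139 after 18 h. #B-20 libraries gave 216 and 266 CPM, then 111 and 123, and last 108 and 146. In each genotype the stimulated libraries lay below the unstimulated ones without overlap. The decrease in parental cells was -1.84 ± 0.14 on the log2 scale at 6 h (adjusted p = 9.13e-08, edgeR) and -1.65 ± 0.14 at 18 h (adjusted p = 6.97e-08). In #A-59 it was -1.12 ± 0.14 at 6 h (adjusted p = 4.67e-05), while -0.90 ± 0.14 at 18 h fell short of the required size (adjusted p = 4.16e-05). In #B-20 the values were -1.04 ± 0.14 (adjusted p = 0.00023) and -0.92 ± 0.14 (adjusted p = 6.16e-05, short of the size). The 6 h call in #B-20 was lost without 0 h replicate 2 (-0.89) or 6 h replicate 1 (-0.99).

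After stimulation, Cd40 lay higher in all 8 clone libraries than in all 4 parental libraries. The log2 fold change at 6 h was 1.07 ± 0.14 in #A-59 (adjusted p = 1.17e-05) and 1.05 ± 0.14 in #B-20 (adjusted p = 1.83e-05), and at 18 h #A-59 gave 1.09 ± 0.14 (adjusted p = 2.09e-05) and #B-20 0.99 ± 0.14 (adjusted p = 4.43e-05), the last just short of a call. At 0 h it was 0.34 ± 0.14 and 0.26 ± 0.14 (adjusted p = 0.108 and 0.224). These calls sit at the size threshold. Without parental 6 h replicate 2 the values at 6 h were 0.95 (#A-59) and 0.93 (#B-20), without #A-59 6 h replicate 1 0.95, without #B-20 6 h replicate 2 0.98, and without parental 18 h replicate 2 the #A-59 value at 18 h was 0.92, each under 1. The test of the response itself did not pass: the clone response exceeded the parental one by 0.73 ± 0.20 (#A-59, 6 h), 0.75 ± 0.20 (#A-59, 18 h), 0.80 ± 0.20 (#B-20, 6 h) and 0.73 ± 0.20 (#B-20, 18 h), with adjusted p-values of 0.0668, 0.207, 0.0783 and 0.0936. The clones did not differ detectably from each other, with log2 fold changes of -0.09 ± 0.14, -0.02 ± 0.14 and -0.11 ± 0.14.

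Cd27 encodes the receptor for CD70 and marks memory B cells in humans. Cd27 (chr6:125232620-125237136) held 5.79 and 7.20 CPM in unstimulated parental libraries and 14.54 and 15.97 CPM after 18 h. In #A-59 it went from 7.52 and 6.01 CPM to 19.2 and 17.6 CPM, and in #B-20 from 6.23 and 5.46 CPM to 14.7 and 10.0 CPM. All libraries at 18 h lay above all unstimulated libraries. It rose at 18 h by log2 fold changes of 1.24 ± 0.18 in parental cells (adjusted p = 1.76e-05), 1.43 ± 0.18 in #A-59 (adjusted p = 3.27e-06) and 1.08 ± 0.19 in #B-20 (adjusted p = 2e-04), the only member called in all 3 genotypes at that time. In #B-20 the value was 0.93 with an offset for GC content, 0.76 without 18 h replicate 1 and 0.99 without 0 h replicate 2, each under the size needed. Cd27 was not called against parental cells in either clone, with log2 fold changes from -0.39 ± 0.19 to 0.36 ± 0.18.

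**Figure D3:**
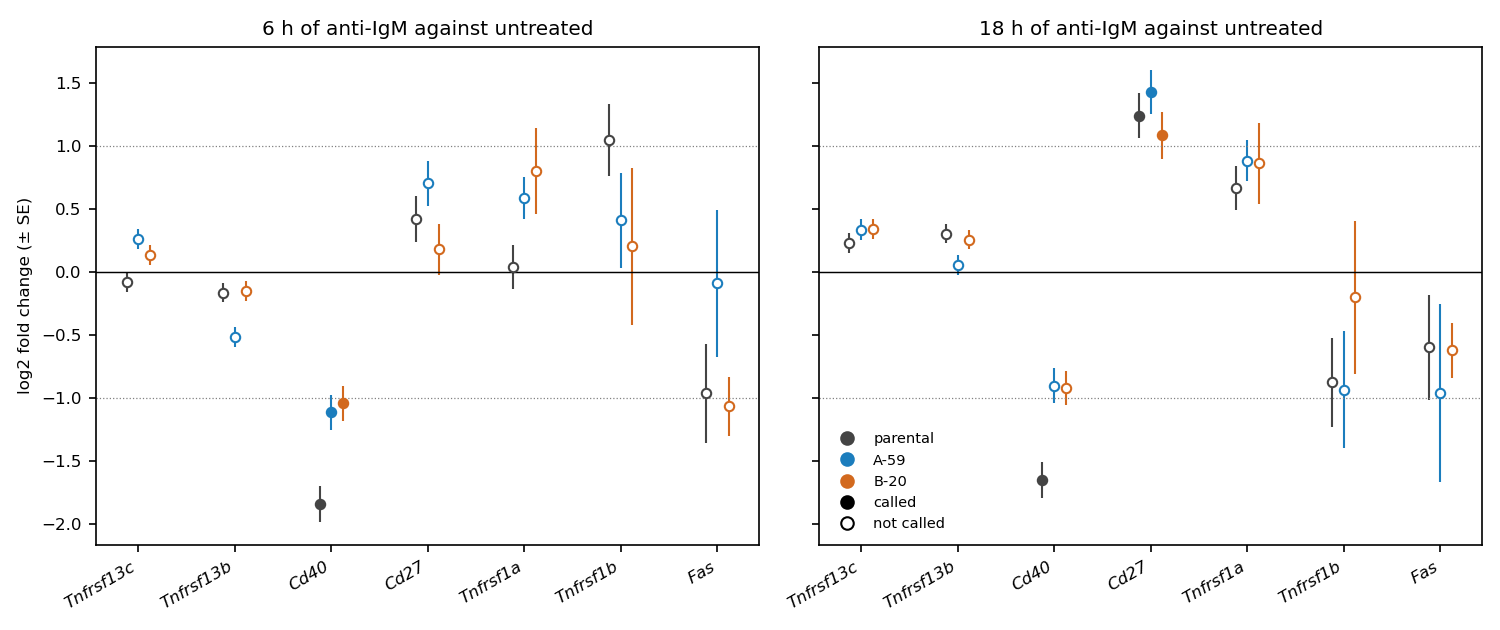
Log2 fold change of 7 receptor genes (x) after 6 h (left) or 18 h (right) of anti-IgM against unstimulated cells of the same genotype (y, ± SE), filled where called. Cd40 lies below 0 in all 3 genotypes at both times and is lowest in parental cells (-1.84 at 6 h), and Cd27 lies above 1 in all 3 at 18 h.

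Fas, the receptor of Fas ligand, gave the largest difference between the clones. Fas (chr19:34290647-34327775) held 0.904 and 0.579 CPM in unstimulated parental cells, 0.271 and 0.155 CPM in #A-59, and 6.89 and 7.87 CPM in #B-20. Stimulated libraries of parental cells held 0.205 to 0.568 CPM, those of #A-59 0.105 to 0.242 CPM and those of #B-20 3.33 to 5.05 CPM. Each #B-20 library thus lay above every other library. Against parental cells, #B-20 was higher by 3.29 ± 0.27, 3.19 ± 0.33 and 3.27 ± 0.33 on the log2 scale at 0, 6 and 18 h (adjusted p = 3.95e-08, 5.59e-07 and 4.88e-07). In #A-59 the values were negative, with -1.72 ± 0.44 at 0 h (adjusted p = 0.00992, called), -0.84 ± 0.53 at 6 h and -2.08 ± 0.65 at 18 h (adjusted p = 0.246 and 0.0339). That single call in #A-59 rests on 8 and 3 reads against 25 and 14 and was lost when any of its 4 libraries was left out (log2 fold changes from -2.23 to -1.35, adjusted p from 0.0101 without parental replicate 2 to 0.158 without parental replicate 1) and with DESeq2 (adjusted p = 0.021). The difference between the clones was 5.01 ± 0.33, 4.03 ± 0.37 and 5.35 ± 0.41 (adjusted p = 4.51e-09, 2.83e-07 and 2.53e-08). After anti-IgM, Fas was not called in any genotype, and the values in #B-20, where reads were ample, were -1.07 ± 0.23 at 6 h and -0.62 ± 0.22 at 18 h (adjusted p = 0.0139 and 0.0331).

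Tnfrsf1a, encoding the death domain receptor TNFR1, showed the reverse pattern in #B-20. Tnfrsf1a (chr6:125349723-125362483) held 5.97 and 5.67 CPM in unstimulated parental cells, 9.01 and 5.95 CPM in #A-59 and 0.736 and 0.682 CPM in #B-20. At 18 h it held 8.92 and 9.49 CPM, 14.4 and 13.6 CPM, and 1.17 and 1.42 CPM, respectively. All #B-20 libraries, at 11 to 38 reads, lay below all others. It was lower in #B-20 than in parental cells by log2 fold changes of -3.03 ± 0.26, -2.27 ± 0.23 and -2.83 ± 0.21 (adjusted p = 7.83e-08, 4.65e-07 and 7.55e-09). In #A-59 the values were positive, 0.38 ± 0.17 at 0 h, 0.93 ± 0.17 at 6 h (adjusted p = 0.000338) and 0.60 ± 0.17 at 18 h, and none was called, although the 6 h value was called without #A-59 replicate 2 (1.01, adjusted p = 0.000407). #B-20 differed from #A-59 by -3.41 ± 0.26, -3.19 ± 0.22 and -3.43 ± 0.20 (adjusted p = 2.21e-08, 5.76e-09 and 4.88e-10). Anti-IgM at 18 h gave log2 changes of 0.67 ± 0.18 (parental), 0.89 ± 0.17 (#A-59) and 0.86 ± 0.32 (#B-20), none of them called. Plekhg6 overlaps this gene on the opposite strand, and its reads could not be separated.

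Tnfrsf1b, encoding TNFR2, which lacks a death domain, was lower in both clones. Tnfrsf1b (chr4:145212368-145246870) held 3.29 and 2.44 CPM in unstimulated parental cells, 5.77 and 6.14 after 6 h and 1.87 and 1.35 after 18 h. #A-59 libraries held 1.42 and 0.621 CPM, then 1.55 and 1.27, and last 0.576 and 0.543, and in #B-20 all libraries lay between 0.224 and 0.784 CPM. At each time the clone libraries lay below the parental ones. #A-59 differed by a log2 fold change of -1.41 ± 0.34, -2.05 ± 0.32 and -1.47 ± 0.47 at 0, 6 and 18 h (adjusted p = 0.00648, 6.05e-05 and 0.0366, the last not called). In #B-20 it was -2.76 ± 0.45, -3.61 ± 0.39 and -2.09 ± 0.46 (adjusted p = 0.000173, 1.29e-06 and 0.00263). With 5 to 42 reads in each clone library, some calls were fragile. The 6 h value in #B-20 was -2.93 without its replicate 1 and -4.57 without its replicate 2. The 0 h call in #A-59 was lost without parental replicate 1 (adjusted p = 0.101), parental replicate 2 (0.0119) or #A-59 replicate 2 (0.0945), and the 18 h call in #B-20 without parental replicate 1 (0.0273), parental replicate 2 (0.0112) or #B-20 replicate 2 (0.0393). In parental cells the 6 h libraries lay above all others (log2 change 1.05 ± 0.28, adjusted p = 0.0184, not called), and the clone values at that time were 0.41 ± 0.38 and 0.21 ± 0.62. Gm68886 overlaps this gene on the opposite strand.

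**Figure D4:**
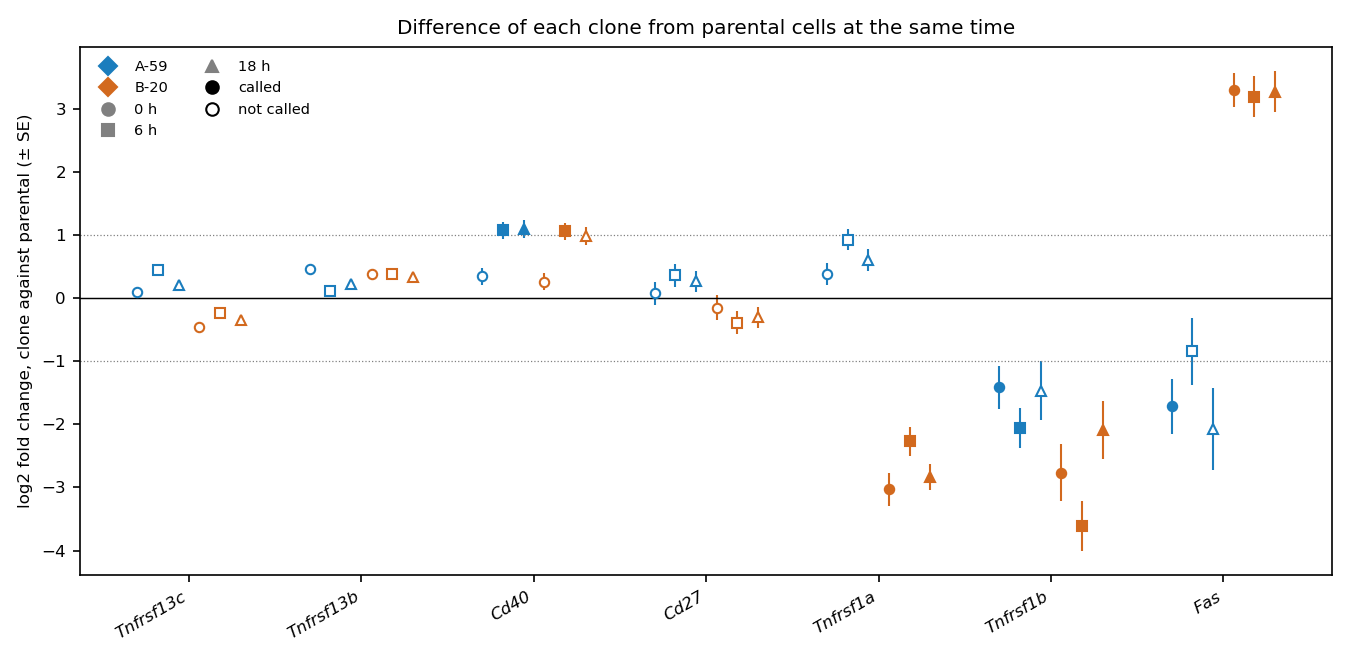
Log2 fold change of each clone against parental cells at the same time (y, ± SE) for the 7 tested receptor genes other than Tnfrsf8 and Tnfrsf22 (x), filled where called, with dotted lines at -1 and 1. Tnfrsf1b lies below -1 in both clones, Fas lies above 3 in #B-20 and below 0 in #A-59, and Tnfrsf1a lies below -2 in #B-20 and above 0 in #A-59.

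The other genes of the pathway came from hand-written lists. Of 18 further receptors of the family, 11 were tested. Their calls against parental cells at 0, 6 and 18 h numbered 1, 3 and 0 higher beside 1, 2 and 1 lower in #A-59, and 0, 3 and 1 higher beside 0, 1 and 0 lower in #B-20. Of all tested genes, 4.78%, 7.91% and 4.92% were called in #A-59 and 5.16%, 6.73% and 6.21% in #B-20. The median log2 fold change of these 11 ranged from -0.18 (#B-20, 0 h) to 0.38 (#A-59, 6 h), beside -0.02 to 0.01 over all genes. No gene of the 4 lists was called higher in both clones, or lower in both, at more than 1 time. The receptors Tnfrsf9, Tnfrsf10b, Tnfrsf11a, Tnfrsf18 and Tnfrsf19 are named after their values were seen, as are Tnfsf18, Ltb, Tank and Bid below. Tnfrsf9, encoding the costimulatory receptor 4-1BB, held 2 and 1 reads in unstimulated parental libraries and 37 and 35 at 6 h, beside 4 and 5 reads in #A-59 and 2 and 0 reads in #B-20 at that time. It passed the filter on low counts through the parental 6 h libraries, so its calls at 6 h, counted above, are given no test here. Tnfrsf10b, the mouse TRAIL death receptor, was lower in #A-59 at all times (-1.35 ± 0.15, -1.45 ± 0.15 and -1.33 ± 0.17), and in #B-20 the values were -0.65 ± 0.15 at 0 h, -0.68 ± 0.15 at 6 h (adjusted p = 0.00422 and 0.00208, short of the size needed for a call) and -0.12 ± 0.15 at 18 h. Tnfrsf18, encoding the costimulatory receptor GITR, was called higher at 6 h in #A-59 (1.64 ± 0.17) and in #B-20 (1.15 ± 0.17). It also lay higher in unstimulated #A-59 (0.657 ± 0.160) and #B-20 (0.714 ± 0.164), short of the size needed for a call. Tnfrsf11a, encoding RANK, held 3 to 31 reads in a library, or 0.131 to 1.38 CPM. It passed the filter on low counts through clone libraries, so its calls, counted above, are given no test here. As a description, its log2 fold change at 6 h was 1.79 ± 0.46 in #A-59 and 2.27 ± 0.45 in #B-20. Both 6 h calls were lost without parental replicate 1, the first also without #A-59 replicate 1. In unstimulated cells the value was 1.765 ± 0.445 in #A-59 and 1.723 ± 0.480 in #B-20. Tnfrsf19 was called higher in #B-20 at 6 h (1.09 ± 0.09, but 0.96 without #B-20 replicate 1) and at 18 h (1.34 ± 0.10).

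Of 18 ligands, 8 were tested, and Cd40lg had no reads in any library. Fasl, Cd70, Tnfsf8 and Tnfsf10, the ligands of Fas, CD27, CD30 and the TRAIL receptors, held at most 5 reads in a library. Against parental cells, 1 tested ligand gene was called higher in #A-59 at 6 h, and in #B-20 1 was lower at 0 h, 1 higher at 6 h and 1 lower at 18 h, with list medians from -0.58 (#B-20, 0 h) to 0.40 (#A-59, 6 h). Of all genes, 4.78% to 7.91% were called in these comparisons. The call at 18 h was Tnfsf18, which held at most 13 reads in a library and 0 reads in 8 libraries. It passed the filter on low counts through parental libraries, so this call is given no test here. Ltb, encoding lymphotoxin beta, a ligand of the receptor encoded by Ltbr, held 94.0 to 534 CPM over the libraries. In parental cells Ltb fell from 435 and 534 CPM to 94.0 and 97.7 CPM at 6 h (log2 change -2.34 ± 0.14, adjusted p = 4.88e-09). In #A-59 the log2 change was -1.43 ± 0.14, and in #B-20 the level went from 353 and 465 CPM to 205 and 240 CPM. The response of #B-20 differed from the parental one by 1.46 ± 0.19 (adjusted p = 0.00135), the only gene of the 4 lists called for such a difference. That call was lost without parental 0 h replicate 2 (1.29, adjusted p = 0.0101) or parental 6 h replicate 1 (1.42, adjusted p = 0.0109).

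All 15 TRAF adaptors and components of alternative NF-κB signalling were tested. Against parental cells, Tank was called lower in #A-59 at 6 h (-1.28 ± 0.12) and Tnfaip3 higher in #B-20 at 18 h (1.53 ± 0.28, lost without #B-20 replicate 1, parental replicate 2 or the filter on low counts, with adjusted p = 0.0131, 0.0323 and 0.0104), and no other gene of the list was called in these 6 comparisons. The list's median log2 fold change lay between 0.09 and 0.35, and 4.78% to 7.91% of all genes were called in these comparisons. With anti-IgM, Tnfaip3, encoding the NF-κB inhibitor A20, was called lower in all 3 genotypes at 18 h, the only gene of the 4 pathway lists to be so. It held 119 and 94.8 CPM in unstimulated and 23.9 and 16.2 CPM in 18 h parental libraries, and its log2 change was -2.44 ± 0.28 there, -1.17 ± 0.26 in #A-59 and -1.02 ± 0.26 in #B-20 (adjusted p = 1.61e-05, 0.00293 and 0.00823). The 18 h call was lost in #A-59 without 0 h replicate 1 (adjusted p = 0.0344) or 18 h replicate 2 (0.0255), and in #B-20 without any of its 4 libraries (adjusted p from 0.0123 to 0.0611). In all, 2 genes of the list (parental), 3 (#A-59) and 1 (#B-20) were called lower after 6 h of anti-IgM, and 4, 1 and 1 after 18 h, when 1 gene was called higher in parental cells. Of all genes, 2.62%, 1.39% and 0.385% were called in either direction at 6 h, and 10.3%, 8.76% and 4.8% at 18 h. Of 12 genes of death domain signalling, 10 were tested and 0 were called in either clone against parental cells by edgeR or DESeq2 (the unadjusted edgeR p was under 0.05 for 4, 6 and 5 of them in #A-59 and 7, 7 and 5 in #B-20 at 0, 6 and 18 h). The share called by edgeR over all genes was 4.78% to 7.91%, which leaves little to be expected among 10 genes. The median log2 fold change of the 10 ran from -0.02 to 0.33, with Fadd, Tradd, Ripk1, Casp8 and Cflar at 14.5 CPM or more in every library. Bid fell at 18 h in parental cells (-1.24 ± 0.10) and in #A-59 (-1.09 ± 0.10), and its value in #B-20 was -0.81 ± 0.10 (adjusted p = 9e-06, short of the size needed).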

How the data were processed

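Counts of 18 WEHI-231 libraries (9 groups of 2) were analysed. The authors deposited whole-number read counts per Ensembl gene without normalization. They made non-stranded mRNA libraries sequenced single-end, aligned reads to GRCm38 with STAR and counted them with featureCounts (versions 2.5 and 1.5.0-p1 per the submitters' processing notes). Groups were taken from the labels. The tables held 0 rows that name no gene. Non-stranded counting merges reads of genes that overlap on opposite strands.

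The members and gene lists were chosen with earlier results of these data known. In edgeR 4.0.16 (R 4.3.3), genes were filtered by filterByExpr (15318 kept), scaled by TMM and fitted by a robust quasi-likelihood model with 1 mean per group over all 18 libraries. P-values were adjusted per comparison over all tested genes (Benjamini-Hochberg). SE is the log2 fold change divided by the square root of its F statistic. CPM are TMM-scaled counts, and replicates are compared by mean ± SD (n = 2). Count ratios of Tnfrsf8 and Tnfrsf22 carry exact conditional binomial intervals, and 3 counts served as the upper limit for 0 reads. Named genes were the 10 members, Tfeb, list genes called higher, or lower, in both clones at 2 or more times or in all 3 genotypes at 18 h, and the 5 genes most like Tnfrsf8 and Tnfrsf22, of which 1 is not reported here. Other genes are named by position or, where stated, after their values were seen.

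Alternatives were DESeq2 1.42.0, its size factors in edgeR, no filter, a stricter filter (10 counts or more per library throughout), fits of the compared groups alone, replicate number as block, a loess GC offset (span 0.5), both together, and each library left out. The edgeR and DESeq2 fits were also run on simulated counts in which genes were changed in unstimulated #A-59 only. No gene of low counts was changed there, and the other comparisons were not checked in this way. Gene names, lengths and shared 50-base stretches came from GENCODE vM39 (93.2% of identifiers matched), and coordinates and promoters from RefSeq on GRCm38.p6. The reads were not analysed here.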

Additional observations from a re-analysis of the deposited data

Results flagged for a closer look

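The difference between the clones passed the test for 2 of the receptors at every time, so that the same knockout contrast gave unequal values in #A-59 and #B-20. Fas in #B-20 exceeded #A-59 by a log2 fold change of 5.01 at 0 h, 4.03 at 6 h and 5.35 at 18 h. Tnfrsf1a in #B-20 lay below #A-59 by -3.41, -3.19 and -3.43 at the same times. Tnfrsf10b, the TRAIL death receptor, was higher in #B-20 than in #A-59 at 18 h by 1.2 on the log2 scale. The response of Ltb to 6 h of anti-IgM differed between #B-20 and parental cells by 1.46 on the log2 scale, a call that was lost without parental 0 h replicate 2 or parental 6 h replicate 1 (adjusted p = 0.0101 and 0.0109, edgeR). Each group held 2 libraries, too few for a test of outlying values within a group.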

How the results depend on the processing

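With at least 10 counts required in every library, 5 of the 10 receptors stayed in the test (Tnfrsf8, Tnfrsf22, Fas, Tnfrsf1b and Ltbr did not), and the number of members called against parental cells went from 2 to 0 (#A-59, 0 h), 2 to 1 (#A-59, 6 h), 3 to 1 (#B-20, 0 h), 4 to 2 (#B-20, 6 h) and 3 to 1 (#B-20, 18 h), and between the clones from 2 to 1 at each time. The list genes called at least once against parental cells went from 11 to 7 under this filter, since fewer genes were tested. DESeq2, and a fit of only the groups compared, called 1 member in #A-59 at 0 h in place of 2, and without a filter 2 were called in #A-59 at 18 h in place of 1. DESeq2 gave no adjusted p for 4 values of members, all differences of the 18 h response. After 6 h of anti-IgM, 2 members in place of 1 were called in parental cells and in #B-20 without a filter, with the replicate number as a block, with a GC offset, with both and with only the groups compared: Tnfrsf1b in parental cells (1.04 to 1.07) and Fas in #B-20 (-1.10 to -1.07). With a GC offset, alone or with the block, 0 members were called in #B-20 at 18 h. List genes called for a response that differed from the parental one numbered 1 in the main analysis, 2 with DESeq2, its size factors, the strict filter, the block and the block with the GC offset, 4 without a filter and 0 with only the groups compared. The cause of these changes was not tested. Leaving out 1 library gave 0 to 1 (#A-59, 0 h), 1 to 3 (6 h) and 0 to 1 (18 h) members called against parental cells, 3 to 4 (#B-20, 6 h) and 2 to 4 (18 h), 1 to 2 after 18 h of anti-IgM in #A-59, 0 to 1 after 6 h and 0 to 2 after 18 h in #B-20, and 2 to 3 between the clones at 6 h. Single values were followed if called, if of a member at low adjusted p, or for Tnfrsf8 and Tnfrsf22 against parental cells. Cd40 alone was followed in every comparison, so small values of other members were not examined for a change of sign. Among the values followed, only small differences of Cd40 between the clones were reversed. With 1 library left out, these ran from -0.247 to 0.054 at 0 h (positive without #B-20 replicate 1), from -0.123 to 0.09 at 6 h (positive without replicate 1 of either clone, 0.045 for #B-20) and from -0.342 to 0.094 at 18 h (positive without #B-20 replicate 1). Replicate numbers were not stated to mark an experiment: the replicate differences of 36 pairs of groups correlated at -0.026 to 0.32 (median 0.078, over 0.1 in 14 of 36). The block changed the calls of members only for Tnfrsf1b (1.07, adjusted p = 0.00631) and Fas (-1.08, adjusted p = 0.00515) as above. Genes with under 10 reads per library, such as Fas in #A-59, allow no firm statement at this depth.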
